A study of Rattus norvegicus with 9 samples.

Results

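Tubulins and the motor proteins that walk on microtubules were measured as RNA in the hippocampus of male Sprague-Dawley rats, and 84 of the 30562 genes in the deposited table belong to them. They were chosen by gene name, with earlier results of these data known. The names are those of alpha, beta and gamma tubulins, kinesin heavy chains, kinesin light chains and subunits of cytoplasmic dynein. Genes whose names begin with Dynl, stathmins, and the microtubule-associated proteins Map1a, Map1b and Map2 were also taken. Names of pseudogenes were left out, and of 1 name carried by more than 1 ID the ID with most counts was kept. The series holds 9 libraries in 3 groups of 3. ChryM rats received chrysophanol, a plant anthraquinone, by gavage on 14 days. Model rats received 4 weeks of high-fat diet, streptozotocin at 50 mg/kg (a toxin of insulin-producing cells) and 5 weeks of unpredictable mild stress. The protocol set a glucose minimum of 16.7 mmol/L. Ctrl rats were normal controls. All were 6 to 8 weeks old at the start and had 1 week of acclimatization. That ChryM rats also went through the Model protocol follows from the title of the series. The sources used here give no chrysophanol dose and do not say whether Model and Ctrl rats received a vehicle. Nothing in the labels ties a library to 1 animal, so the p-values measure spread among the libraries at hand, part of which may be technical.

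Microtubules are hollow polymers of alpha and beta tubulin dimers, and gamma tubulin starts their growth. In neurons they fill axons and dendrites and carry cargo: most kinesins walk towards the plus end, outward along the axon, and cytoplasmic dynein walks back towards the cell body. Microtubule-associated proteins stabilise the polymer, while stathmins bind free tubulin and favour disassembly. Oligodendrocytes also depend on microtubules, which carry myelin mRNA into their processes.

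Totals ran from 631119 to 866048 counts per library, which is shallow, and 47 of the 84 members had enough counts to be tested among 7073 genes. The other 37 had at most 81 counts over all libraries: 6 had none, 14 had 1 to 10, and 17 had more. A tested member had a median of 41 to 94 counts per library, against 19 to 27 for all tested genes. Of 10 hippocampal field markers, Wfs1, C1ql2, Fibcd1, Neurod6 and Nr3c2 were detected with 47 or more counts in each group. Prox1, Zbtb20 and Amigo2 had 2 to 11 counts per group, and Spink8 and Lct had 0. The 10 genes summed to 291 to 335 CPM in ChryM, 229 to 231 CPM in Model and 326 to 345 CPM in Ctrl. Of the 5 tested, C1ql2, Wfs1 and Nr3c2 were lower in Model vs Ctrl, C1ql2 and Wfs1 were higher in ChryM vs Model, and Nr3c2 was lower in ChryM vs Ctrl. The libraries keep strand, but the strand setting of the counting was not given in the sources used here. Kif20a, with 452 counts, overlaps Cdc23 on the other strand, which had 49, and Kif2a, with 410, overlaps Dimt1, which had 2065. What part of the counts of overlapping members comes from the partner was not tested.

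The promoters of 4 members are shown because the results turn on them: the called kinesin and the called microtubule-associated protein with the smallest p between ChryM and Model libraries, and the 2 beta tubulins called in that comparison, which moved in opposite directions. Each line gives the 250 bases upstream of the RefSeq start in GRCr8, read 5′ to 3′ on the gene's own strand. Capitals mark matches, on either strand, to any of 4 motifs. The GC box was searched as GGGCGG. The CCAAT box was searched by the letters of its name. The TATA box was searched as TATAAA. The cyclic AMP response element was searched as TGACGTCA.
Kif1c, chr10:55912843-55913092, + strand: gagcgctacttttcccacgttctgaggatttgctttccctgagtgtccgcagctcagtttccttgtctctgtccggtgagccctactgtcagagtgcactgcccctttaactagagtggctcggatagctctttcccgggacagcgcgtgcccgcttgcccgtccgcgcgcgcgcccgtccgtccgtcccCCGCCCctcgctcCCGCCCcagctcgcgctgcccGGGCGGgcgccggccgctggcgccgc
Tubb4a, chr9:2012282-2012531, - strand: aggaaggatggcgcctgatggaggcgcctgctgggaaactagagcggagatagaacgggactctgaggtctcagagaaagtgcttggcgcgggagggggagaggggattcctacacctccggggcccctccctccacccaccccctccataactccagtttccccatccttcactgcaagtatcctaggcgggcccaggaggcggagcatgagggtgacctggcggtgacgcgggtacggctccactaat
Map1b, chr2:32644472-32644721, - strand: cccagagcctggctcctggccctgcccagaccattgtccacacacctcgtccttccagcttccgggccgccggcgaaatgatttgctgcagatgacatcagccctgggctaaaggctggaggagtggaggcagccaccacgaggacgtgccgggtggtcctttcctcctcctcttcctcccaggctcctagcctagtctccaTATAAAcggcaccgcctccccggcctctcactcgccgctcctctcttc
Tubb3, chr19:68365437-68365686, + strand: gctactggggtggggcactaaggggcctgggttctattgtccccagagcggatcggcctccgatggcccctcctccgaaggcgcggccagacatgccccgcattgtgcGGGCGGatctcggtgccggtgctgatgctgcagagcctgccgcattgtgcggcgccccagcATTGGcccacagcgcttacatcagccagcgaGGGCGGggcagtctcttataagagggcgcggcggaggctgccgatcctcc
The Kif1c window held 3 GC boxes, the Tubb3 window 2 GC boxes and 1 CCAAT box, and the Map1b window 1 TATA box, while none of these letters stood in the Tubb4a window. No match overlapped another in these windows. Of the 70 members with a RefSeq promoter, 45 held a GC box, 31 a CCAAT box, 7 a TATA box and 5 a cyclic AMP response element. The same letters stood in 30.5%, 34.0%, 12.9% and 1.59% of all 33469 promoters. Matches of letters do not show binding of a factor.

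Compared per gene length as deposited FPKM (fragments per kilobase of gene length, scaled to the library total), the dynein light chain gene Dynll1 had the highest mean over all libraries, at 578. It was followed by the beta tubulin Tubb4a at 320, the stathmin Stmn4 at 228, the alpha tubulin Tuba1a at 185 and the neuronal beta tubulin Tubb3 at 177. Kif5a led the kinesins at 68.9 FPKM and Kif13b followed at 62.1. Kif13b carried more counts than any other member, 7023, on a deposited length of 16569 bases. Of the beta tubulins, Tubb2b was listed at 0 in all 9 libraries beside 2648 counts for Tubb2a. Kif12, Kif14, Kif28p, Tuba3a and Tuba3b were also listed at 0, where a floor of 3 counts allows up to 3.46 to 4.75 CPM per library. Tubulin genes are close copies of each other, so reads may be split between isotypes in a way these counts cannot resolve. Kinesins of cell division were near the floor: Kif11, Kif2c, Kif18a, Kif18b, Kif20b, Kif22 and Kif23 had 1 to 3 counts each in all. Kif20a, also a kinesin of cell division, was the exception.

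In all, 18 members changed in at least 1 of 3 comparisons, making 26 calls at an adjusted p under 0.05 in edgeR's quasi-likelihood test. Gene levels below are counts scaled to a common library total and by the trimmed mean of M-values (CPM), and fold changes are log2 with their standard error (SE). Between Model and Ctrl libraries 5 of 47 tested members were higher and 3 lower, 17.0% called against 12.4% of all tested genes. Between ChryM and Model libraries 5 were higher and 5 lower, 21.3% called against 8.27%. Between ChryM and Ctrl libraries 5 were higher and 3 lower, 17.0% called against 18.8%. The median log2 fold changes of the members in these comparisons were -0.021, -0.055 and -0.028, beside -0.018, 0.0015 and -0.0096 for all tested genes. Members carry more counts than the median gene, and these shares are not read as particular to them. Among the 47 tested members, groups did not overlap for 7 higher and 5 lower in Model vs Ctrl (26.1% of all genes in either direction, 13.4% higher and 12.7% lower). They did not overlap for 8 higher and 10 lower in ChryM vs Model (23.6%, 11.8% and 11.7%), and for 8 higher and 8 lower in ChryM vs Ctrl (31.7%, 15.8% and 15.8%). An unadjusted p under 0.05 was reached by 13, 16 and 15 members in the 3 comparisons, beside 23.5%, 19.3% and 29.6% of all genes. Scaling by library totals alone turned the split of all genes in Model vs Ctrl, 498 higher and 381 lower, into 290 higher and 641 lower, and moved the median by -0.112. The same scaling gave 369 higher and 254 lower in ChryM vs Model, where the main split was 273 and 312, and 533 higher and 799 lower in ChryM vs Ctrl, where it was 695 and 634. ChryM vs Model and Model vs Ctrl share the Model libraries, and a high or low value there enters both.

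**Figure D1:**
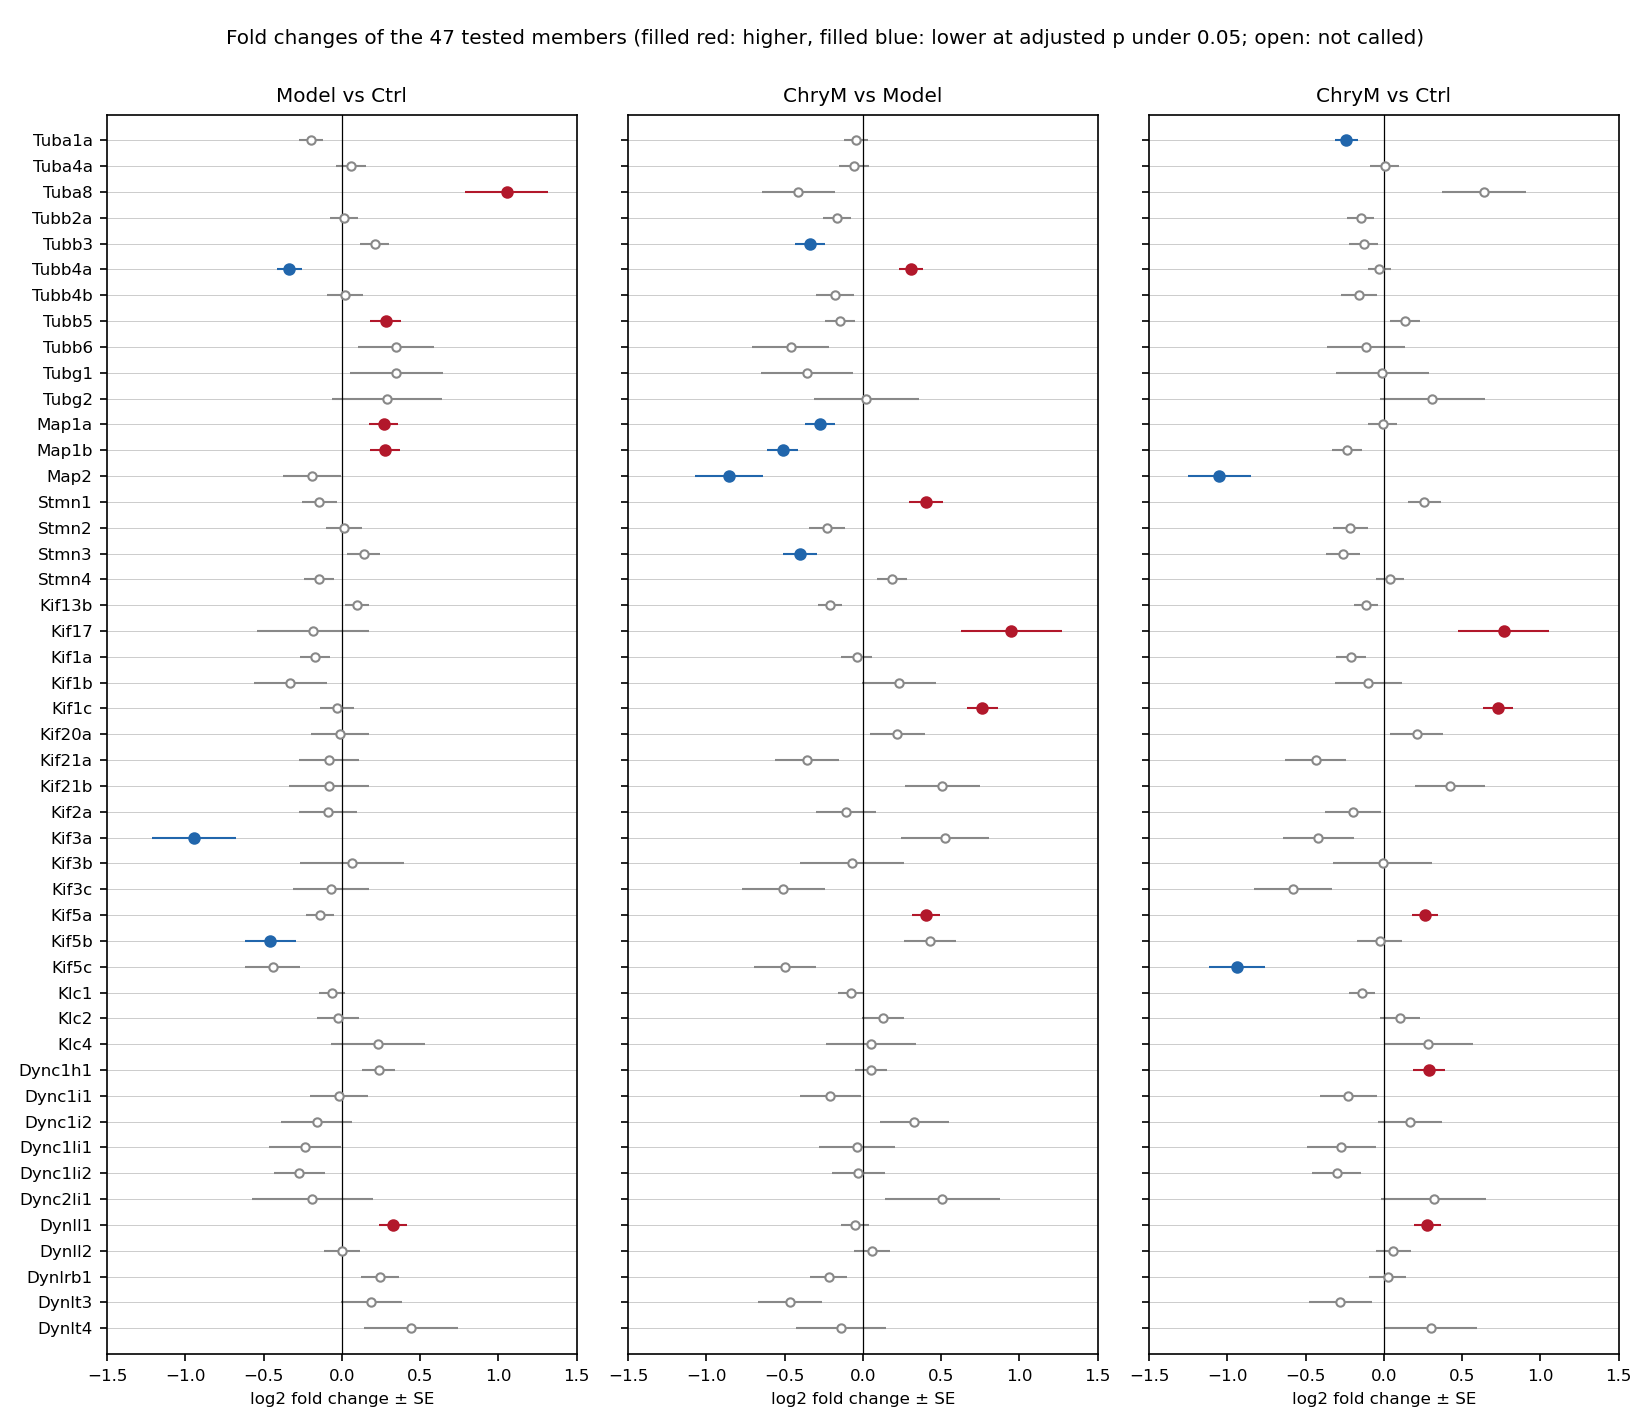
Log2 fold change (x axis, ± SE) of the 47 tested members (rows, grouped by role) in 3 panels, 1 per comparison; filled points passed an adjusted p of 0.05, red higher and blue lower. Tuba8, Kif3a, Kif17, Kif5c and Map2 lie farthest from 0 among the called members, and Tubb4a, Map1a and Map1b are called in opposite directions in the left and middle panels.

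Alpha tubulins. Tuba1a (ENSRNOG00000053468), the main alpha tubulin of neurons, stood at 834, 785 and 749 CPM in ChryM, at 844.5, 839 and 764 CPM in Model and at 959, 956 and 882 CPM in Ctrl. Every ChryM and Model library lay below every Ctrl library. It fell in ChryM vs Ctrl at -0.24 ± 0.07 (adjusted p = 0.0112), while Model vs Ctrl gave -0.20 ± 0.08 (adjusted p = 0.0700). The call of ChryM vs Ctrl was lost without ChryM 2, ChryM 3 or Ctrl 1 (adjusted p up to 0.0697) and without a count filter (adjusted p = 0.0869). The Model vs Ctrl difference was called in 8 alternatives, among them library totals (-0.31, adjusted p = 0.000127) and without Ctrl 3 or ChryM 3 (adjusted p = 0.0112 and 0.0499). In bulk tissue, fewer cells of a type and less RNA per cell cannot be told apart, for this and every result below.

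Tuba8 (ENSRNOG00000048169), a minor alpha isotype, had the largest rise. Its levels were 34.2, 29.4 and 26.8 CPM in ChryM, 45.8, 39.7 and 36.0 CPM in Model and 17.7, 19.9 and 20.5 CPM in Ctrl. The 3 groups did not overlap, with ChryM between the other two. Model vs Ctrl gave 1.05 ± 0.27 (adjusted p = 0.00161), and this call was kept in all 17 alternatives that tested the gene. ChryM vs Model was -0.41 ± 0.23 (adjusted p = 0.334) and ChryM vs Ctrl 0.64 ± 0.27 (adjusted p = 0.0764). As a share of the summed FPKM of alpha tubulins, Tuba8 held 4.64% ± 0.32 in ChryM, 5.92% ± 0.59 in Model and 2.76% ± 0.24 in Ctrl (SD, n = 3 each). RefSeq also lists Tuba1b, but no member carries that name, so the sum and these shares leave it out. Tuba4a, an alpha tubulin without an encoded terminal tyrosine, was not called, at 268 to 297 CPM in ChryM, 275 to 313 CPM in Model and 276 to 299.8 CPM in Ctrl.

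Beta and gamma tubulins. Tubb4a (ENSRNOG00000047505), an isotype of neurons and oligodendrocytes, was lower in Model than in the other groups. It had 672, 708 and 732 CPM in ChryM, 548, 596 and 564 CPM in Model and 681, 733 and 741 CPM in Ctrl. No Model library reached any ChryM or Ctrl library. It fell in Model vs Ctrl at -0.34 ± 0.08 (adjusted p = 0.000864) and rose in ChryM vs Model at 0.31 ± 0.08 (adjusted p = 0.00424), and both calls were kept in all 19 alternatives. ChryM vs Ctrl gave -0.03 ± 0.08 (adjusted p = 0.837). Its share of the summed beta tubulin FPKM was 43.6% ± 1.4 in ChryM, 34.7% ± 1.9 in Model and 42.9% ± 2.0 in Ctrl (SD, n = 3 each).

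Most oligodendrocyte and myelin markers were lower in Model, like Tubb4a. Of 13 tested markers 12 were lower in Model than in Ctrl, and 7 were higher in ChryM than in Model. In ChryM vs Ctrl 7 were lower and 1 higher, with a median of -0.35, whereas Tubb4a was not called there. Their 14 genes summed to 15165 to 16592 CPM in ChryM, 8580 to 9511 CPM in Model and 15722 to 16900 CPM in Ctrl, and none was at 0 in any group. Hippocampal field markers were also lowest in Model in their sum. The part of either list in the Tubb4a result, or in that of Kif3a (also lower in Model), was not tested.

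Tubb3 (ENSRNOG00000017209), the beta tubulin used as a marker of neurons, ran the other way. It stood at 298, 274 and 264 CPM in ChryM, 363, 341 and 355 CPM in Model and 309, 330.5 and 274 CPM in Ctrl, and Model was above both other groups in every library. It fell in ChryM vs Model at -0.34 ± 0.09 (adjusted p = 0.00855). The call was lost without ChryM 2 (adjusted p = 0.0527) and on both log2 FPKM scales (adjusted p up to 0.0999). Model vs Ctrl gave 0.21 ± 0.09 (adjusted p = 0.134). Tubb3 held 20.4% ± 1.5 of beta tubulin FPKM in ChryM, 25.3% ± 0.99 in Model and 21.4% ± 1.7 in Ctrl (SD, n = 3 each). Shares of 1 sum are not independent, and a lower Tubb4a raises the share of every other isotype. As FPKM, Tubb3 averaged 158 ± 12 in ChryM, 192 ± 6.6 in Model and 180 ± 22 in Ctrl.

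Tubb5 (ENSRNOG00000061216), the widely expressed class I isotype, had 310.1, 271 and 269 CPM in ChryM, 333, 321 and 289 CPM in Model and 282, 237 and 256 CPM in Ctrl. It rose in Model vs Ctrl at 0.28 ± 0.10 (adjusted p = 0.0402), with no overlap between those groups. The call was lost without Model 1, Model 2, Ctrl 2 or Ctrl 3 (adjusted p up to 0.228), with library totals (0.17, adjusted p = 0.267) and with other count filters (adjusted p up to 0.0858). It was lost on both log2 FPKM scales as well (adjusted p up to 0.304). Tubb2a, Tubb4b and Tubb6 were tested and not called in any comparison, with log2 fold changes of -0.46 to 0.35 and the extremes both from Tubb6. Tubb2a was called lower in ChryM vs Ctrl with a mean count of at least 30 (-0.21, adjusted p = 0.0398). Tubg1 and Tubg2, the gamma tubulins, were not called either, with 3 to 22 counts per library and an SE of 0.30 to 0.35, and none had an unadjusted p under 0.05. Tubb1 had 1 count in all.

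**Figure D2:**
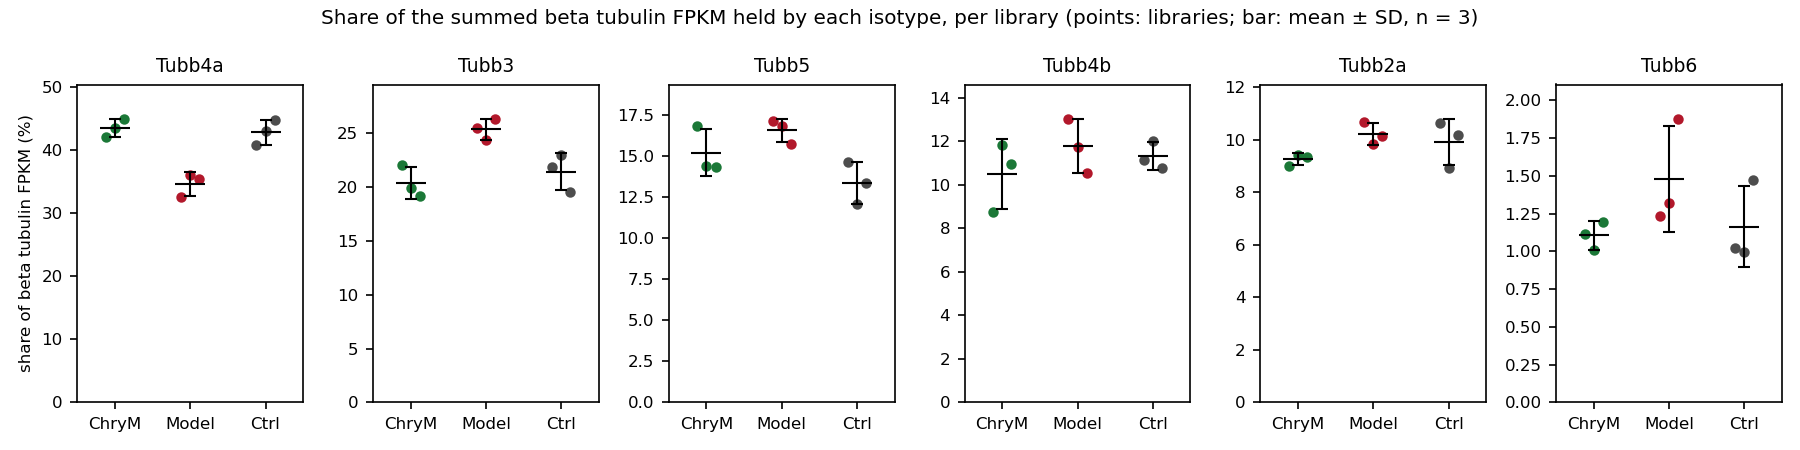
Share of the summed beta tubulin FPKM (y axis, percent) held by each of 6 isotypes in the ChryM, Model and Ctrl libraries; points are libraries and bars the mean ± SD. Tubb4a averaged 43.6% in ChryM, 34.7% in Model and 42.9% in Ctrl, and Tubb3 was highest in Model at 25.3%.

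Microtubule-associated proteins and stathmins. All 3 of Map1a, Map1b and Map2 were lower in ChryM than in Model. Map1b (ENSRNOG00000017428), a protein of growing axons, had 204, 243 and 235 CPM in ChryM, 331, 311 and 329 CPM in Model and 276, 279 and 246 CPM in Ctrl. The Model libraries were the 3 highest and the ChryM libraries the 3 lowest. Map1b fell in ChryM vs Model at -0.51 ± 0.10 (adjusted p = 2.82e-05), a call lost only on log2(FPKM + 1) and log2(FPKM + 0.1) (adjusted p = 0.113 and 0.111). It rose in Model vs Ctrl at 0.28 ± 0.10 (adjusted p = 0.0390). This rise was lost without any 1 of Model 1, Model 2, Model 3, Ctrl 1 or Ctrl 3 (adjusted p up to 0.132) and with library totals (0.16, adjusted p = 0.272). It was also lost with other count filters (adjusted p up to 0.0868) and on both FPKM scales (adjusted p up to 0.559).

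Map1a, which stabilises microtubules of mature neurons, had 310.1, 323 and 256 CPM in ChryM, 384, 354 and 344 CPM in Model and 281, 318 and 299.8 CPM in Ctrl. It was higher in Model vs Ctrl at 0.27 ± 0.09 (adjusted p = 0.0423) and lower in ChryM vs Model at -0.27 ± 0.09 (adjusted p = 0.0454). Both calls are near the threshold. In Model vs Ctrl it was lost without Model 1, Model 2, Model 3, Ctrl 1 or Ctrl 3 (adjusted p up to 0.219), and in ChryM vs Model without ChryM 1, ChryM 3, Model 1, Model 2, Model 3 or Ctrl 1 (adjusted p up to 0.319). With library totals the fold changes were 0.15 and -0.22 (adjusted p = 0.288 and 0.121). Both calls were also lost with DESeq2, without a count filter and with the spread estimated without robustness. On both FPKM scales they were lost too (adjusted p up to 0.553 and 0.410). The Model vs Ctrl call was lost with a mean count of at least 30 as well (adjusted p = 0.0930). Map1a overlaps Tp53bp1 on the other strand, which had 253 counts beside its own 2175.

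Map2 (ENSRNOG00000011841), the main microtubule-associated protein of dendrites, had the largest fall in ChryM. It stood at 19.5, 32.8 and 44.2 CPM in ChryM, at 64.7, 61.2 and 49.3 CPM in Model and at 61.3, 60.7 and 78.0 CPM in Ctrl. All ChryM libraries were below all others, and they were also the most spread out. ChryM vs Ctrl gave -1.05 ± 0.20 (adjusted p = 1.43e-05), kept in all 19 alternatives. ChryM vs Model gave -0.86 ± 0.22 (adjusted p = 0.00333), lost without ChryM 1, the lowest library (-0.61, adjusted p = 0.109), and on both FPKM scales (adjusted p up to 0.113). Its count was low for its length, 354 over all libraries on 8285 bases.

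Among stathmins, Stmn1 (ENSRNOG00000016810), the widely expressed member, rose in ChryM vs Model. It had 236, 211 and 239 CPM in ChryM, 155, 180.3 and 181 CPM in Model and 176, 207 and 189 CPM in Ctrl, with ChryM above every other library. The log2 fold change was 0.40 ± 0.11 (adjusted p = 0.00722), lost without Model 1 (0.33, adjusted p = 0.0907) and with DESeq2 (adjusted p = 0.0572). Stmn3, a neuronal stathmin of Golgi membranes, fell by as much. It had 181, 171 and 158 CPM in ChryM, 249, 232 and 197 CPM in Model and 184, 218 and 211 CPM in Ctrl, with ChryM below every other library. ChryM vs Model was -0.40 ± 0.11 (adjusted p = 0.00750), lost without Model 1 (-0.33, adjusted p = 0.104), with DESeq2 (adjusted p = 0.0570) and on both FPKM scales (adjusted p up to 0.167). Stmn3 overlaps Rtel1 on the other strand, which had 135 counts beside its own 1360. Stmn2 and the stathmin most abundant per length, Stmn4, were not called, with log2 fold changes of -0.23 to 0.19. Stmn4 was called lower in Model vs Ctrl with library totals (-0.26, adjusted p = 0.0400), and Stmn2 in ChryM vs Ctrl with a mean count of at least 30 (-0.27, adjusted p = 0.0420).

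Some neuron markers fell in ChryM beside these members. Of 12 tested markers 4 were lower in ChryM than in Model and 0 higher, beside 4.41% of all genes lower, and 3 of the 12 had a positive fold change. The called genes were Nefl at -0.40, Snap25 at -0.34, Syn1 at -0.46 and Eno2 at -0.28. In Model vs Ctrl 1 of the 12 was higher and 3 lower (33.3% called, beside 12.4% of all genes). In ChryM vs Ctrl 1 was higher and 5 lower (50.0%, beside 18.8%). The 13 genes summed to 3563 to 3753 CPM in ChryM, 4194 to 4242 CPM in Model and 4207 to 4640 CPM in Ctrl, and none was at 0 in any group. The nuclear neuron marker Rbfox3 was at 0.23 in ChryM vs Model (adjusted p = 0.173). Of 7 markers of immature neurons only Sox4 had enough counts to be tested, and it was higher in Model vs Ctrl at 0.54 (adjusted p = 0.0231) and lower in ChryM vs Model at -0.70 (adjusted p = 0.00333). Those 7 genes summed to 66 to 85 CPM in ChryM, 99.8 to 103 CPM in Model and 74 to 110 CPM in Ctrl. Markers of other cell types also had negative fold changes in ChryM vs Model. Of 5 tested microglia markers all 5 did (median -0.46) and 1 was called, and their list summed to 109 to 129 CPM in ChryM and 160.0 to 182 CPM in Model. Of 8 astrocyte markers 7 did (median -0.24) and 1 was called, with sums of 1394 to 1419 CPM in ChryM and 1442 to 1509 CPM in Model. The 1 tested endothelial marker stood at -1.14 and was not called, with sums of 23 to 36 CPM in ChryM and 41 to 58 CPM in Model. The part of any of these lists in the results for Tubb3, Map1a, Map1b, Map2 and Stmn3 was not tested.

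**Figure D3:**
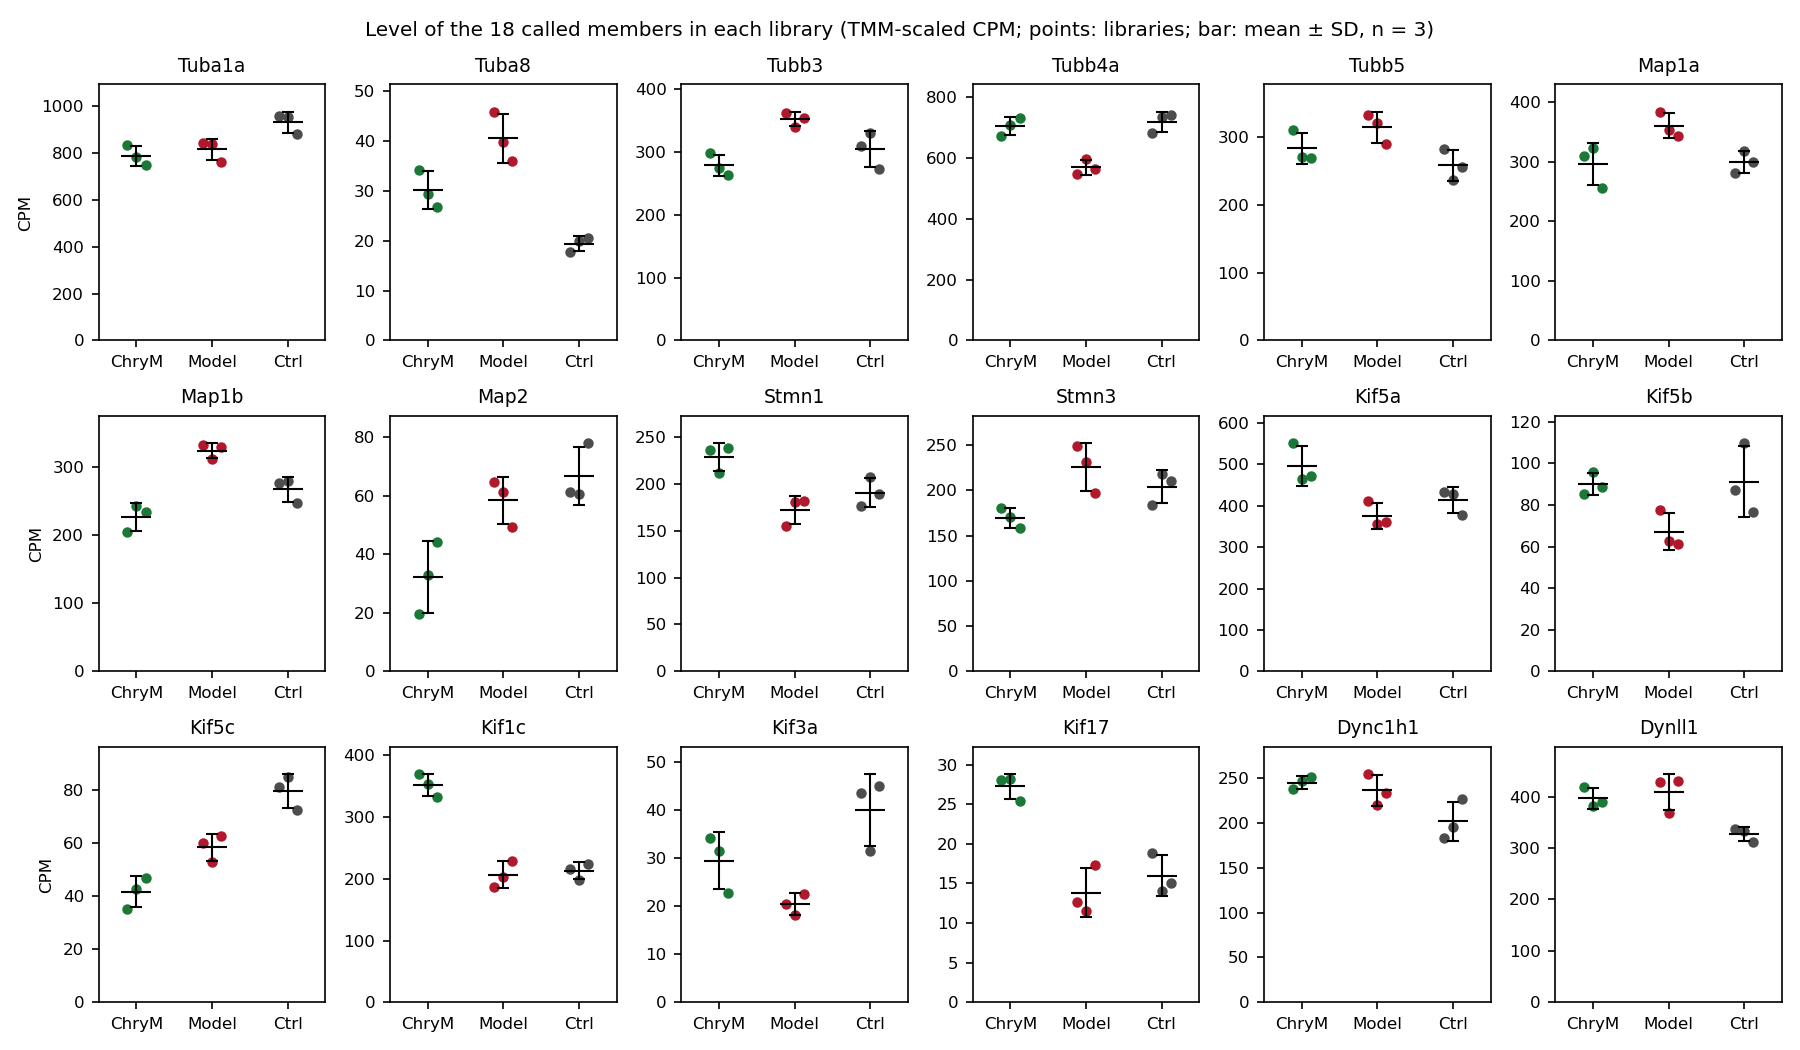
Level (y axis, TMM-scaled CPM from 0) of the 18 called members in the ChryM, Model and Ctrl libraries; points are libraries and bars the mean ± SD of 3. Tubb4a is low in Model alone, Kif1c and Kif17 are high in ChryM alone, and Kif5c is highest in Ctrl and lowest in ChryM.

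Kinesins. Of 38 kinesin genes 15 were tested. In Model vs Ctrl 0 were higher and 2 lower, in ChryM vs Model 3 higher and 0 lower, and in ChryM vs Ctrl 3 higher and 1 lower. Background rates for single directions were 7.04% higher and 5.39% lower, 3.86% and 4.41%, and 9.83% and 8.96% in these comparisons.

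Kif1c (ENSRNOG00000031364), a kinesin-3 motor that carries vesicles and mRNA, had the smallest p of any member. It had 369, 352 and 332 CPM in ChryM, 186, 203 and 229 CPM in Model and 216, 197 and 224 CPM in Ctrl. The ChryM libraries stood far above both other groups, which overlapped. The log2 fold changes were 0.76 ± 0.10 in ChryM vs Model (adjusted p = 1.35e-10) and 0.73 ± 0.09 in ChryM vs Ctrl (adjusted p = 8.26e-11), both kept in all 19 alternatives. Model vs Ctrl was -0.03 ± 0.11 (adjusted p = 0.906). The other kinesin-3 genes with enough counts did not pass the test: Kif1a, a motor of synaptic vesicle precursors, lay between -0.21 and -0.04, Kif1b between -0.33 and 0.23, and Kif13b between -0.21 and 0.10. Kif1a was nonetheless lower in every ChryM library (241, 247 and 261 CPM) and every Model library (249, 268 and 253 CPM) than in Ctrl (289, 278 and 301 CPM), with adjusted p of 0.105 and 0.282. With library totals Kif1a was called lower in ChryM vs Ctrl and in Model vs Ctrl (adjusted p = 0.0231 and 0.0289), and with a mean count of at least 30 in ChryM vs Ctrl (adjusted p = 0.0142). Kif13b stood at 935, 876 and 1052 CPM in ChryM, at 1059, 1149.7 and 1104 CPM in Model and at 1018, 921 and 1163 CPM in Ctrl. Its ChryM vs Model adjusted p was 0.0597, and it was called in 6 alternatives (-0.21 to -0.29, adjusted p of 0.0109 to 0.0398), among them without ChryM 3, without Ctrl 2 and without Ctrl 3.

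Kinesin-1, the main motor of fast outward axonal transport, has 3 heavy chains, and no test of the difference between them was run. Kif5a, the neuron-specific and most abundant chain, had 552, 464 and 473 CPM in ChryM, 412, 356 and 360.0 CPM in Model and 434, 429 and 378 CPM in Ctrl, with ChryM highest in every library. It rose in ChryM vs Model at 0.40 ± 0.09 (adjusted p = 0.000381), kept in all 19 alternatives. It also rose in ChryM vs Ctrl at 0.26 ± 0.08 (adjusted p = 0.0166), lost without ChryM 1 (0.17, adjusted p = 0.236) and without Ctrl 3 (adjusted p = 0.0738). This call was also lost with library totals (adjusted p = 0.0544), with DESeq2 (adjusted p = 0.0510) and on both log2 FPKM scales (adjusted p up to 0.287). Model vs Ctrl was -0.14 ± 0.09 (adjusted p = 0.344), and was called with library totals (-0.26, adjusted p = 0.0246), under which Kif5b and Kif5c were called lower as well.

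Kif5c, a second neuronal chain, had 35.4, 42.9 and 46.9 CPM in ChryM, 60.0, 52.9 and 62.7 CPM in Model and 81.4, 85.3 and 72.5 CPM in Ctrl. The 3 groups did not overlap, with ChryM lowest and Ctrl highest. It fell in ChryM vs Ctrl at -0.94 ± 0.18 (adjusted p = 1.10e-05), kept in all 19 alternatives. Model vs Ctrl was -0.44 ± 0.17 (adjusted p = 0.0785) and ChryM vs Model -0.50 ± 0.20 (adjusted p = 0.117). The first of these was called with library totals and with a mean count of at least 30 (adjusted p = 0.0207 and 0.0214).

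Kif5b, the widely expressed chain, had 85.5, 96.0 and 88.5 CPM in ChryM, 77.3, 62.9 and 61.3 CPM in Model and 87.3, 109.8 and 76.7 CPM in Ctrl. It was lower in Model vs Ctrl at -0.46 ± 0.16 (adjusted p = 0.0472), though Model 1 lay above Ctrl 3. The call was lost in 11 of 19 alternatives, among them without ChryM 2, Model 2, Model 3, Ctrl 1 or Ctrl 2 (adjusted p up to 0.401), with DESeq2 (adjusted p = 0.150) and with the replicate block (adjusted p = 0.0574). ChryM vs Model gave 0.43 ± 0.16 (adjusted p = 0.0918), with no overlap between those groups, and was called with library totals (0.48, adjusted p = 0.0474). Per length, as FPKM, Kif5a averaged 79.6 ± 8.1 in ChryM, 58.0 ± 4.7 in Model and 69.1 ± 7.1 in Ctrl, against 11.2 ± 1.4, 15.1 ± 1.4 and 22.2 ± 2.4 for Kif5c (SD, n = 3 each). The light chain genes Klc1, Klc2 and Klc4, which couple kinesin-1 to cargo, were not called (0 at an unadjusted p under 0.05), with log2 fold changes of -0.14 to 0.28, and Klc3 was too low to test. Klc1 was called lower in ChryM vs Ctrl with library totals and with a mean count of at least 30 (both -0.20, adjusted p = 0.0468 and 0.0394). Klc1 ran at 429 to 514 CPM in ChryM, 464 to 524 CPM in Model and 467 to 558 CPM in Ctrl, and Klc2 at 117 to 153 CPM in ChryM, 103 to 140.0 CPM in Model and 109.7 to 134 CPM in Ctrl.

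**Figure D4:**
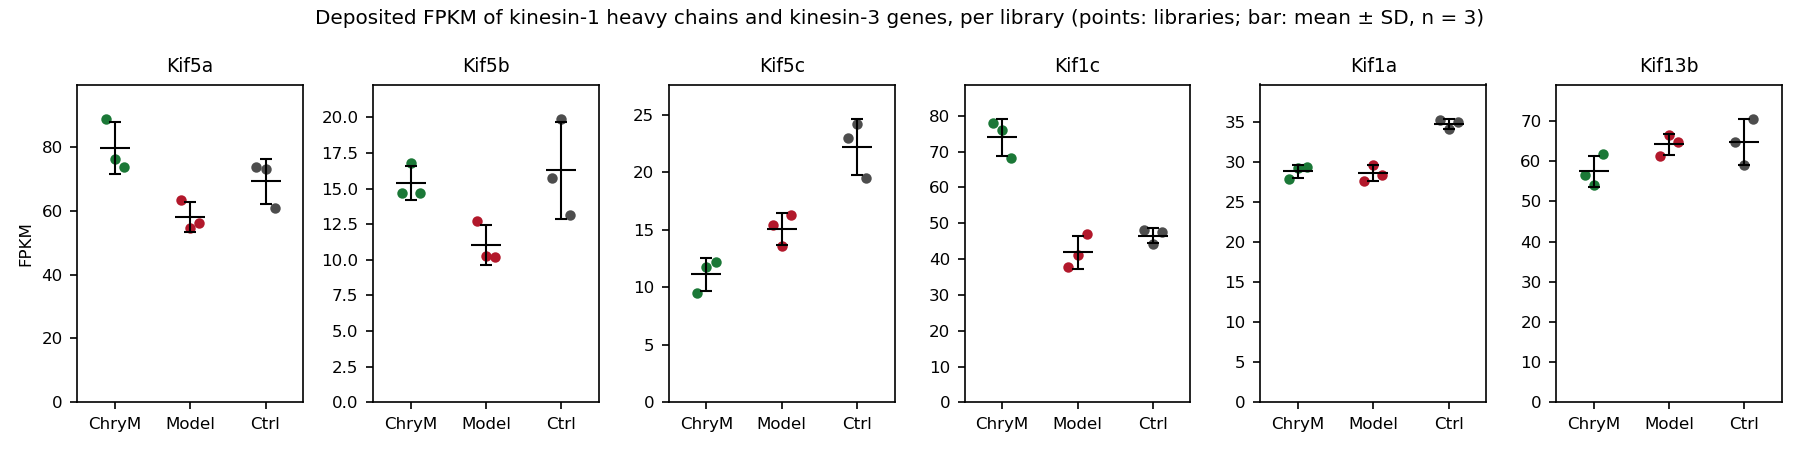
Deposited FPKM (y axis from 0) of the kinesin-1 heavy chains Kif5a, Kif5b and Kif5c and the kinesin-3 genes Kif1c, Kif1a and Kif13b in the ChryM, Model and Ctrl libraries; points are libraries and bars the mean ± SD of 3. Kif5a and Kif1c are highest in ChryM, where Kif5c is lowest at 11.2 FPKM against 22.2 in Ctrl.

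Among kinesin-2 genes, Kif3a (ENSRNOG00000007515), a subunit of the kinesin-2 complex of cilia and axons, had 34.2, 31.6 and 22.8 CPM in ChryM, 20.5, 18.2 and 22.7 CPM in Model and 43.6, 31.5 and 45.2 CPM in Ctrl. Model lay below both other groups, although Model 3 and ChryM 3 were almost equal. It fell in Model vs Ctrl at -0.95 ± 0.27 (adjusted p = 0.00593), kept in all 17 alternatives that tested it. ChryM vs Model was 0.53 ± 0.28 (adjusted p = 0.286). Its partner Kif3b was at 15.9 to 18.1 CPM in ChryM, 16.5 to 18.7 CPM in Model and 15.1 to 17.7 CPM in Ctrl, and Kif3c was not called (-0.58 to -0.07). Kifap3, the gene of the accessory subunit of this complex, fell in ChryM vs Ctrl at -0.81 ± 0.17 (adjusted p = 0.000106).

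Kif17, a kinesin-2 homodimer that carries NMDA receptors along dendrites, had 28.1, 28.2 and 25.5 CPM in ChryM, 12.6, 11.6 and 17.3 CPM in Model and 18.9, 14.0 and 15.1 CPM in Ctrl. ChryM was above all other libraries. Its 67 counts in ChryM, 28 in Model and 39 in Ctrl gave 0.95 ± 0.32 for ChryM vs Model (adjusted p = 0.0380) and 0.77 ± 0.29 for ChryM vs Ctrl (adjusted p = 0.0458). The first call was lost without ChryM 1, ChryM 2, ChryM 3, Model 1 or Model 2 (adjusted p up to 0.163). The second was lost without any 1 library except Model 3 (adjusted p up to 0.168). Without a count filter both calls were lost (adjusted p = 0.0872 and 0.0842). The ChryM vs Ctrl call was also lost with library totals (adjusted p = 0.0729), in a fit of the compared groups alone (adjusted p = 0.0514) and on both FPKM scales (adjusted p up to 0.105). The remaining tested kinesins, Kif2a, Kif20a, Kif21a and Kif21b, had log2 fold changes of -0.44 to 0.51 and were not called. Kif21a was called lower in ChryM vs Ctrl with a mean count of at least 30 (-0.49, adjusted p = 0.0376).

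Some members below the count filter had fewer counts outside Ctrl, and were picked here after their values were seen. Kif26a, a kinesin without motor activity, had 3, 6 and 1 counts in ChryM, 3, 0 and 4 in Model and 14, 9 and 8 in Ctrl. Without a count filter it was called in Model vs Ctrl at -1.79 (adjusted p = 0.0310) and in ChryM vs Ctrl at -1.58 (adjusted p = 0.0284). Kif19, which trims ciliary microtubules, had 5, 1 and 4 counts in ChryM, 3, 1 and 4 in Model and 8, 8 and 9 in Ctrl. Dynlrb2, a dynein light chain gene of ciliated cells, had 2 counts in ChryM, 1 in Model and 8 in Ctrl. The dynein-2 gene Dync2i2 had 11 counts in ChryM, 13 in Model and 26 in Ctrl, and Dynlt1 had 10, 4 and 14. Some other untested members did not share this pattern. Dync2h1, the dynein-2 motor of cilia, had 18 counts in ChryM, 9 in Model and 6 in Ctrl, Dync2i1 had 33, 24 and 24, and Dynlt5 had 5, 6 and 2. Choroid plexus markers, whose tissue is ciliated, stood at a sum of 102 to 114 CPM in ChryM, 51 to 75 CPM in Model and 1939 to 1988 CPM in Ctrl. Of 12 such markers 5 were tested, and all 5 were lower in Model and in ChryM than in Ctrl. Kl, Aqp1, Otx2, F5 and Prlr were at 0 in both groups and Folr1 also in ChryM. Markers of ependyma and motile cilia summed to 83 to 102, 76 to 97 and 81 to 94 CPM in ChryM, Model and Ctrl. The part of choroid plexus RNA in the untested members with fewer counts outside Ctrl was not tested. Nor was it tested in members that also set Ctrl apart from both other groups (Tuba1a, Tuba8, Kif1a, Kif5c and Dynll1).

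Cytoplasmic dynein. The heavy chain gene Dync1h1 (ENSRNOG00000006178), the motor itself, had 237, 246 and 251 CPM in ChryM, 254, 220.0 and 233 CPM in Model and 183, 195 and 226 CPM in Ctrl. It rose in ChryM vs Ctrl at 0.29 ± 0.10 (adjusted p = 0.0314), with no overlap between those groups. The call was lost in 9 of 19 alternatives, among them without ChryM 2, ChryM 3, Ctrl 1 or Ctrl 2 (adjusted p up to 0.202), with library totals (adjusted p = 0.0919) and with DESeq2 (adjusted p = 0.114). The intermediate and light intermediate chain genes Dync1i1, Dync1i2, Dync1li1 and Dync1li2 were not called, with log2 fold changes of -0.30 to 0.33. Dync1i1, a neuronal intermediate chain that holds cargo adaptors, ran at 40.3 to 59.0 CPM in ChryM, 56.0 to 62.9 CPM in Model and 48.4 to 74.7 CPM in Ctrl. Of the dynein-2 genes for transport inside cilia, Dync2li1 was tested and not called.

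Dynll1, a light chain shared by dynein and many other complexes, was the only called gene of the 5 tested of the Dynl names. It had 419, 382 and 389 CPM in ChryM, 428, 369 and 431 CPM in Model and 336, 333 and 311 CPM in Ctrl. All ChryM and Model libraries were above all Ctrl libraries. It rose in Model vs Ctrl at 0.33 ± 0.09 (adjusted p = 0.00579) and in ChryM vs Ctrl at 0.28 ± 0.09 (adjusted p = 0.0147). These comparisons share the Ctrl libraries. The first call was lost without Model 1 or Model 3 (adjusted p = 0.0510 and 0.0679) and with library totals (0.21, adjusted p = 0.0795), and the second without ChryM 1 (adjusted p = 0.106). Both were also lost on both log2 FPKM scales (adjusted p up to 0.109 and 0.0767). Dynll2 stayed at 151 to 182 CPM in ChryM, 161 to 170.5 CPM in Model and 159 to 169 CPM in Ctrl, and was not called, with its largest log2 fold change at 0.06.

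Genes that work with these motors and tubulins, taken from lists by function, are given next; shares of all genes called were 12.4% in Model vs Ctrl, 8.27% in ChryM vs Model and 18.8% in ChryM vs Ctrl. Of 10 tested dynactin genes, the cofactor of dynein, none was called in any comparison by edgeR, and 0, 1 and 2 had an unadjusted p under 0.05 in Model vs Ctrl, in ChryM vs Model and in ChryM vs Ctrl. Of 7 dynein adaptors and regulators, Pafah1b1, the lissencephaly gene, fell in Model vs Ctrl at -0.80 ± 0.18 (adjusted p = 0.000312) and in ChryM vs Ctrl at -0.92 ± 0.17 (adjusted p = 8.09e-06), and Bicdl1 rose in ChryM vs Ctrl at 0.69 ± 0.25 (adjusted p = 0.0373). Of 10 kinesin adaptors, Trak2, which links mitochondria to kinesin-1, was lower in Model vs Ctrl at -0.39 ± 0.14 (adjusted p = 0.0451). In ChryM vs Ctrl 4 of the 10 (40.0%) were lower, with Kidins220 at -0.65 and Appbp2 at -1.02 beside Kifap3.

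Of 27 other microtubule-binding genes, 2 were lower in Model vs Ctrl, Dclk1 at -0.59 ± 0.13 and the plus-end protein gene Mapre1 at -0.97 ± 0.32. In ChryM vs Model 2 were higher, Map7, a recruiter of kinesin-1, at 0.77 ± 0.14 (adjusted p = 1.73e-05) and Map4 at 0.34 ± 0.09 (adjusted p = 0.00807). In ChryM vs Ctrl 4 were higher and 4 lower (29.6% called), led by Dclk1 at -0.62, Map1s at 0.93 and Map7 at 0.42. Among 9 genes of tubulin folding and the gamma tubulin ring, 1 was called, Tubgcp6 at 0.39 ± 0.09 in ChryM vs Ctrl, and of 2 tested severing genes none was.

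Some enzymes that modify tubulin fell in Model. Of 15 tested, 4 (26.7%) were lower in Model vs Ctrl and 0 higher: the tubulin deacetylase Sirt2 at -0.68 ± 0.13 (adjusted p = 1.02e-05), the detyrosinating enzyme Vash1 at -1.42 ± 0.32 (adjusted p = 0.000222), the deglutamylase Agtpbp1 at -0.88 ± 0.21 (adjusted p = 0.000836) and the polyglutamylase Ttll7 at -1.36 ± 0.41 (adjusted p = 0.00912). In ChryM vs Model edgeR called 0 of them, with 4 at an unadjusted p under 0.05. Sirt2 and Vash1 were also lower in ChryM vs Ctrl at -0.47 and -0.73. The median of the 15 in Model vs Ctrl was 0.084, beside -0.018 for all tested genes. Sirt2 is abundant in oligodendrocytes, whose markers were lower in Model by the values given above. The part of that list in the Sirt2 result was not tested.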

How the data were processed

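Libraries of poly(A) RNA keep strand through dUTP marking, per the labels' protocols. The authors deposited whole-number read counts per gene. Deposited beside them, per the file headers, are FPKM and the length of each gene, and 100% of FPKM values equalled count over length and library total (relative tolerance 1e-09). Per the submitters' processing notes the authors used HISAT2 and DESeq2 (no version stated). Counting tool, strand setting, build and annotation were not given in the sources used here.

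Genes were kept with filterByExpr (7073 of 30562), scaled with TMM factors of 0.9578 to 1.06 and fitted together on all 9 libraries, 1 coefficient per group and 6 residual degrees of freedom, with edgeR 4.0.16 (robust glmQLFit and glmQLFTest, two-sided) in R 4.3.3. P-values were Benjamini-Hochberg adjusted over all 7073 genes at a threshold of 0.05. The printed SE is the test's error or, where larger, that of counting the group's reads. In 4 of 26 calls the test's error was not above counting error, so those p-values may be too small. Floors cover counting error only. Within groups, library pairs differed by 1.246 to 2.327 times counting variance, and between groups by 3.333 to 4.925 times, and no libraries were identical.

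Members and lists were chosen with earlier results of these data known. The text names every called member, the 2 members highest in FPKM in each class, members without counts, and up to 3 called genes per other list and comparison. Neighbours and promoters come from RefSeq GRCr8, where all 84 members matched. Positions were used only for overlaps and printed promoters. On simulated counts for Model vs Ctrl (7036 genes tested), the test recovered 6.52%, 27.1%, 57.4% and 95.6% of genes planted at folds of 1.25, 1.5, 2 and 4, with 3 false calls among 6850. Every simulated gene had the same relative spread beyond counting, 5.5%, which real genes need not share. These rates therefore hold for the simulation and may differ for the real counts. Alternatives were other scalings, DESeq2 1.42.0 on all genes, other count filters, a fit of the compared groups alone, the spread estimated without robustness, a replicate block, limma 3.58.1 on log2(FPKM + 1) and log2(FPKM + 0.1), and leaving out each library.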

Additional observations from a re-analysis of the deposited data

How the results depend on the processing

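Of 26 member calls, 9 were kept in all alternatives that gave a value (up to 19) and 17 were lost in at least 1. None of the 26 calls changed sign in an alternative that gave a value. The counts of members called in Model vs Ctrl (5 higher, 3 lower) became 1 and 8 with library totals, 3 and 1 with DESeq2, 2 higher without a count filter, 1 higher with a mean count of at least 30 and 1 higher on log2(FPKM + 1) or log2(FPKM + 0.1). In ChryM vs Model (5 and 5) they became 3 and 3 with DESeq2 and 0 lower on log2(FPKM + 1) or log2(FPKM + 0.1). In ChryM vs Ctrl (5 and 3) they became 2 and 8 with library totals, 2 higher with DESeq2, 3 and 11 with a mean count of at least 30, and 1 higher on either FPKM scale. Leaving out each library gave 1 to 5 higher and 2 to 4 lower in Model vs Ctrl, 3 to 5 and 3 to 6 in ChryM vs Model, and 2 to 5 and 2 to 4 in ChryM vs Ctrl. Over all genes the median log2 fold change shifted with library totals by -0.112, 0.054 and -0.0583 in the 3 comparisons; a mean count of at least 30 moved it by -0.0639, 0.00638 and -0.0575. FPKM is scaled to library totals, and the runs on FPKM also used limma in place of edgeR. On log2(FPKM + 1) 207 genes were called higher and 346 lower in Model vs Ctrl. DESeq2 called 359 and 81 of all genes in Model vs Ctrl, 106 and 156 in ChryM vs Model, and 385 and 206 in ChryM vs Ctrl. Why the settings gave different counts was not tested.

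No pairing of libraries by replicate number was seen. Deviations from group means correlated at -0.0325 to 0.0421 for the same number and -0.0434 to 0.0631 for other numbers. Of 9 libraries 3 correlated best with their own number. At these counts noise could hide a pairing, so the check cannot exclude one. With the replicate block 5 members were higher and 3 lower in Model vs Ctrl, 5 and 6 in ChryM vs Model, and 5 and 3 in ChryM vs Ctrl. In the simulated counts 27.1% of genes planted at a fold of 1.5 were recovered, so small changes can be missed at this depth. Few genes were planted, and they were drawn from all tested genes, so the rate for members may differ.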
